A study of Mus musculus with 35 samples.

Results

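Border macrophage markers were examined in microglia that had been sorted from 3 brain regions of adult mice. The markers were 6 genes chosen by name, Mrc1, Cd163, Pf4, F13a1, Cbr2 and Ms4a7, and all 6 were among the 21236 genes of the count table. The samples came from 12 mice, 6 males and 6 females, and comprised 12 midbrain, 12 striatum and 11 prefrontal cortex (PFC) samples, since the PFC of 1 male was lost. Every mouse carried Tmem119-2A-CreERT2, which places a tamoxifen-dependent Cre under the microglial gene Tmem119, together with the Cre-dependent reporter Ai14(RCL-tdTomato)-D, and every mouse received tamoxifen, so no sample came from untreated or unsorted tissue. TdTomato-positive cells of each region were sorted by fluorescence, and the cells that were not labelled were not analysed here. The study compared regions and sexes. For these markers, it gives their transcript levels in each sorted sample, without saying which cells made them. Samples are named by region and by the number in their titles, which was taken as the number of the mouse. The labels do not state this, and the values within mice and with the mouse as a block rest on it.

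Border-associated macrophages live in the meninges, along blood vessels and in the choroid plexus, and are separate from the microglia of the brain tissue itself. They are known for scavenger and lectin receptors, for capturing material from blood and cerebrospinal fluid, and, in some subsets, for presenting antigen on MHC class II. Tmem119 is a gene of microglia that these cells largely lack, whereas the 6 markers are used to tell them from microglia. In a bulk sample, fewer cells of a type and less RNA per cell cannot be told apart.

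Promoters are shown for Mrc1 and Ms4a7, the members with the most counts in the table and the ones on which the regional results turn. Each is the 250 bases before the RefSeq transcription start in GRCm38.p6, written 5′ to 3′ on the strand of the gene. Capitals mark GAGGAA on either strand, the core of sites bound by the myeloid factor PU.1. The Mrc1 window lies on the plus strand at chr2:14229164-14229413 and the Ms4a7 window on the minus strand at chr19:11336147-11336396.
Mrc1: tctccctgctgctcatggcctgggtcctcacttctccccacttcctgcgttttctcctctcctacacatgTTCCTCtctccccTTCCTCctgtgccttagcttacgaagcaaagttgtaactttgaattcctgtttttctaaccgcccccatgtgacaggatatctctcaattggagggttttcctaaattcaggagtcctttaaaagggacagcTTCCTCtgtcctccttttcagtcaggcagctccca
Ms4a7: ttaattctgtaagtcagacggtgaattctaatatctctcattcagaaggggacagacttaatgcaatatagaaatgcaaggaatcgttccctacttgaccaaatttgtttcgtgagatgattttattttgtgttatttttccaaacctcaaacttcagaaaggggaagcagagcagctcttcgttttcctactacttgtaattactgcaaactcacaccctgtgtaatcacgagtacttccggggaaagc
The Mrc1 window held 3 matches, all on the opposite strand, and the Ms4a7 window held 0. Of the 8 RefSeq windows of the 6 members, 4 held the letters, against 23.3% of the 32851 windows of all genes. A match is a description of the letters and not a bound site.

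The 35 samples held between 37680501 and 54131421 counts, so 3 counts, taken as the floor of detection in a sample, corresponded to 0.0561 to 0.0789 CPM (counts scaled to a common library size by the trimmed mean of M values, TMM). The microglial identity of the samples was plain. The summed CPM of 14 homeostatic microglia genes, among them Csf1r, ranged from 51353 to 65659. The summed CPM of the 6 border macrophage markers ranged from 2.13 to 18.1 in 34 samples. It was 123.4 in the remaining sample, the midbrain of mouse 6, a female. In addition, 1 data column was named as PFC of mouse 3 while its sample was labelled striatum of mouse 3. It was used as striatum, and results were also computed without it.

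Gene levels per length ordered the members. Pf4 and Mrc1 had the highest medians over the 35 samples, at 0.694 and 0.656 CPM per kilobase of exon, followed by Cbr2 at 0.406. Ms4a7 and F13a1 followed at 0.0826 and 0.0741 CPM per kilobase, and the Cd163 median was 0. Mrc1 was above the floor in 35 samples, Cbr2 in 33, Pf4 and Ms4a7 in 30 each, F13a1 in 28 and Cd163 in 7.

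**Figure D1:**
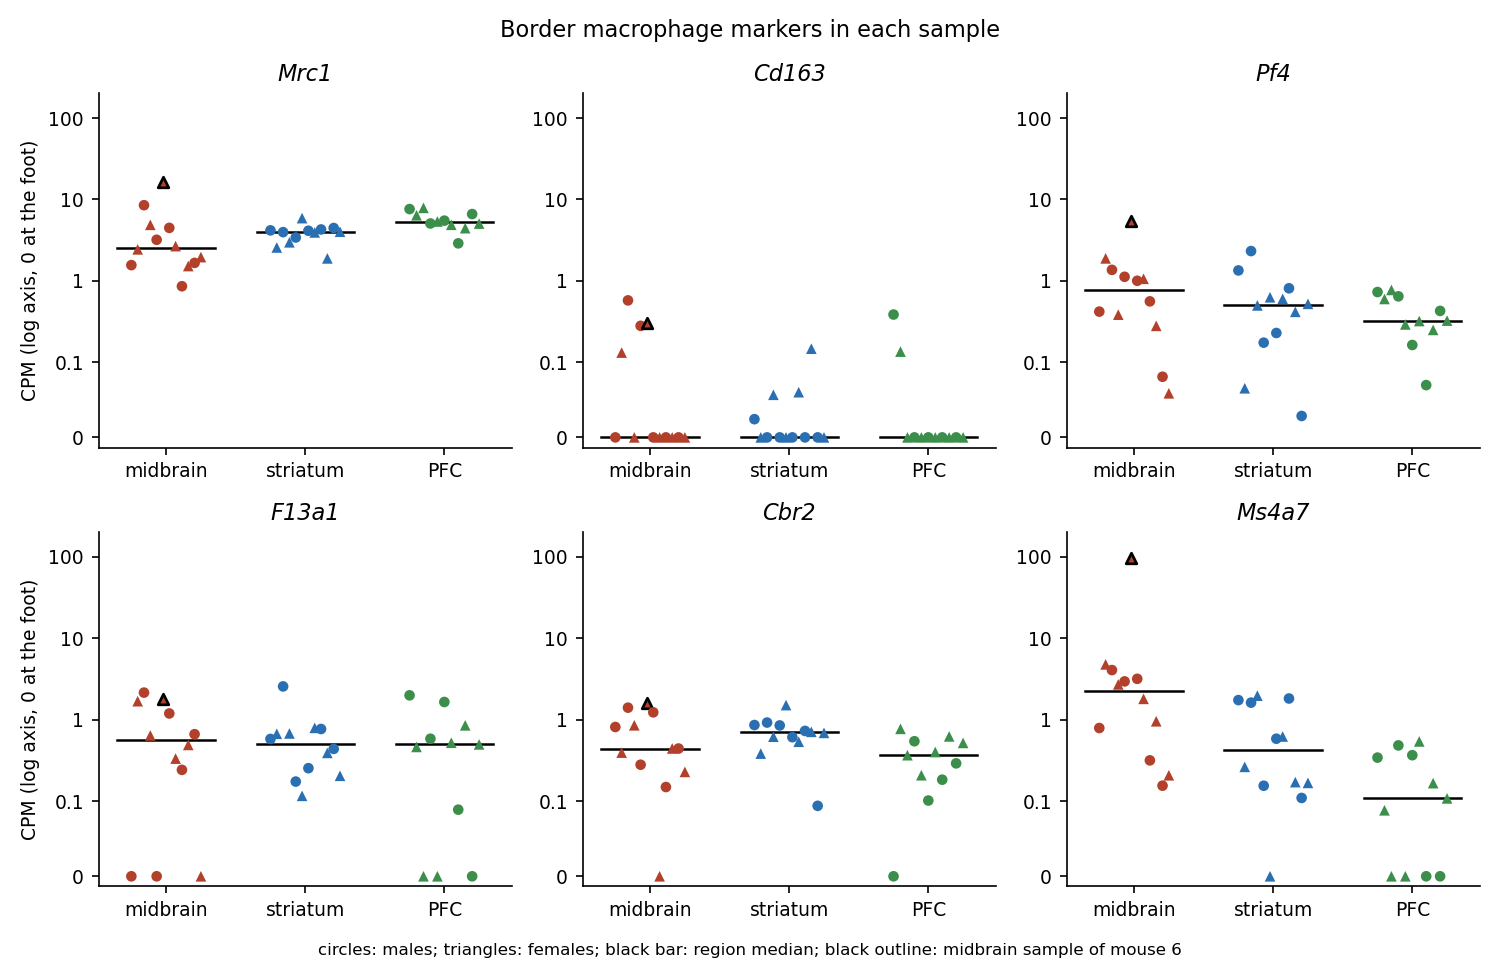
CPM of each member in each sample, on a log axis with 0 drawn at the foot, by region, with males as circles, females as triangles and the region median as a bar. The midbrain sample of mouse 6, outlined in black, was at 97.9 CPM for Ms4a7 and at 16.4 CPM for Mrc1, above every other sample.

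Ms4a7, a tetraspan membrane protein of the MS4A family found on border macrophages and on macrophages of bone marrow origin, differed between regions (region effect, edgeR adjusted p = 0.00164). It was the single member of 6 called for region, where 8.89% of all genes were called. The gene (ENSMUSG00000024672) lies on the minus strand at chr19:11321039-11336146 of GRCm38. In the midbrain its level was lowest at 0.155 CPM, had a median of 2.26 CPM and was highest at 97.9 CPM. In the striatum it ran from 0 to 1.98 CPM with a median of 0.426 CPM, and in the PFC from 0 to 0.543 CPM with a median of 0.108 CPM. The midbrain and PFC groups overlapped little, with 9 of 12 midbrain samples above the highest PFC sample, whereas 6 of 12 lay above the highest striatum sample.

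The fitted difference was -5.39 on the log2 scale for PFC relative to midbrain (SE 1.10, adjusted p = 0.00130), a comparison in which 5.99% of all genes were called and Ms4a7 was the single member. Striatum was lower than midbrain by a log2 difference of -3.27 (SE 0.99, adjusted p = 0.0364), again the single member, against 6.47% of all genes. Striatum exceeded PFC by 2.12 on the log2 scale (SE 1.03), which met the rule of the study (a region effect, unadjusted p = 0.0469 and a fold change over 1.2) but not adjustment over all genes (adjusted p = 0.422). That rule called 3.14% of all genes.

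The size of these differences rested in large part on 1 sample. Without the midbrain of mouse 6, the midbrain mean fell from 9.99 ± 27.7 CPM (SD, n = 12) to 2.00 ± 1.64 CPM (SD, n = 11), against 0.190 ± 0.208 CPM in the PFC (SD, n = 11) and 0.772 ± 0.781 CPM in the striatum (SD, n = 12). The region effect remained called (adjusted p = 0.00840). The log2 difference of PFC from midbrain was then -3.39 (SE 0.76, adjusted p = 0.00367) and that of striatum from midbrain -1.42 (SE 0.68, adjusted p = 0.235), which still met the rule of the study (unadjusted p = 0.0424).

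Samples of the same mouse were then compared. In 11 of 11 mice Ms4a7 was lower in PFC than in midbrain, and in 10 of 12 mice it was lower in striatum than in midbrain. When each mouse was fitted as a block, PFC remained below midbrain (log2 difference -3.67, SE 0.96, adjusted p = 0.0173). The calls for striatum against midbrain (-1.74, SE 0.86, adjusted p = 0.223) and striatum against PFC (1.93, SE 0.99, adjusted p = 0.345) were lost.

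**Figure D2:**
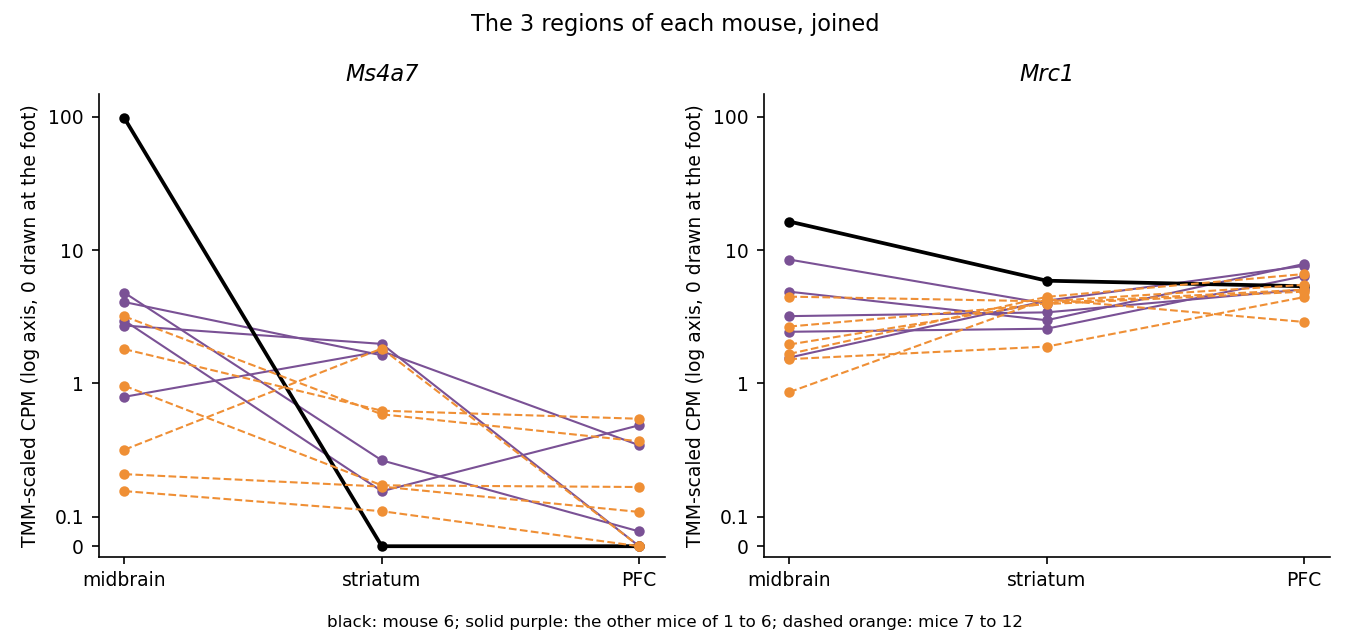
CPM of Ms4a7 and Mrc1 on a log axis in midbrain, striatum and PFC, with the samples of each mouse joined and mouse 3 without a PFC sample. Mouse 6, in black, went from 97.9 CPM of Ms4a7 in the midbrain to 0 in its striatum and PFC, and Mrc1 was higher in PFC than in midbrain in 10 of 11 mice.

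Levels of Ms4a7 in the midbrain also differed between the mice numbered 1 to 6 and those numbered 7 to 12. They ran from 0.793 to 97.9 CPM with a median of 3.52 CPM in the first set and from 0.155 to 3.19 CPM with a median of 0.639 CPM in the second. This was not particular to Ms4a7, since the midbrain medians of the other members were also higher in the first set. They were 4.04 against 1.81 CPM for Mrc1, 1.25 against 0.421 for Pf4 and 1.17 against 0.413 for F13a1. For Cbr2 they were 0.837 against 0.337 CPM, for Cd163 0.206 against 0, and for the member sum 10.4 against 3.35. The labels do not say what, if anything, separated these sets. Fitted on mice 1 to 6 alone, Ms4a7 for PFC against midbrain was -6.34 on the log2 scale (adjusted p = 0.0839). On mice 7 to 12 alone it was -2.41 (adjusted p = 0.202). The direction was kept in both and neither set gave a region call for any member. Mice 1 to 6 alone gave 512 called genes for region among the 21236.

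Mrc1, the mannose receptor CD206 and the most used marker of border macrophages, was detected everywhere and had another order of regions. The gene (ENSMUSG00000026712) lies on the plus strand of GRCm38 at chr2:14229392-14332057 and contains Mir511. Its CPM ran from 2.89 to 7.88 in the PFC with a median of 5.37, from 1.89 to 5.90 in the striatum with a median of 3.99, and from 0.860 to 16.4 in the midbrain with a median of 2.56. All 11 PFC samples were above the midbrain median, yet the highest levels were in the midbrain, in mice 6 and 3 at 16.4 and 8.51 CPM. With all samples, Mrc1 was not called for region (adjusted p = 0.499), and PFC against midbrain was 0.43 on the log2 scale (SE 0.32, adjusted p = 0.569).

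The Mrc1 estimate for PFC against midbrain depended on mouse 6. Leaving out that midbrain sample gave 0.90 (SE 0.26, adjusted p = 0.0292), and a block for each mouse gave 0.88 (SE 0.27, adjusted p = 0.0447), while the region effect itself stayed just short of the threshold in both (adjusted p = 0.0517 and 0.0553). With the block and without that sample together, a fit added after seeing the data, Mrc1 was called for region. PFC then exceeded midbrain by 1.11 on the log2 scale (adjusted p = 0.00222). The sample was left out because its member levels stood apart, and it held the highest Mrc1 level. Leaving it out therefore raises PFC over midbrain, and the p-values of the fits without it are not independent of that choice. Within mice, PFC was higher in 10 of 11, by a median of 2.92 CPM. Mrc1 and Ms4a7 thus had opposite fitted signs for PFC relative to midbrain in each of these fits.

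**Figure D3:**
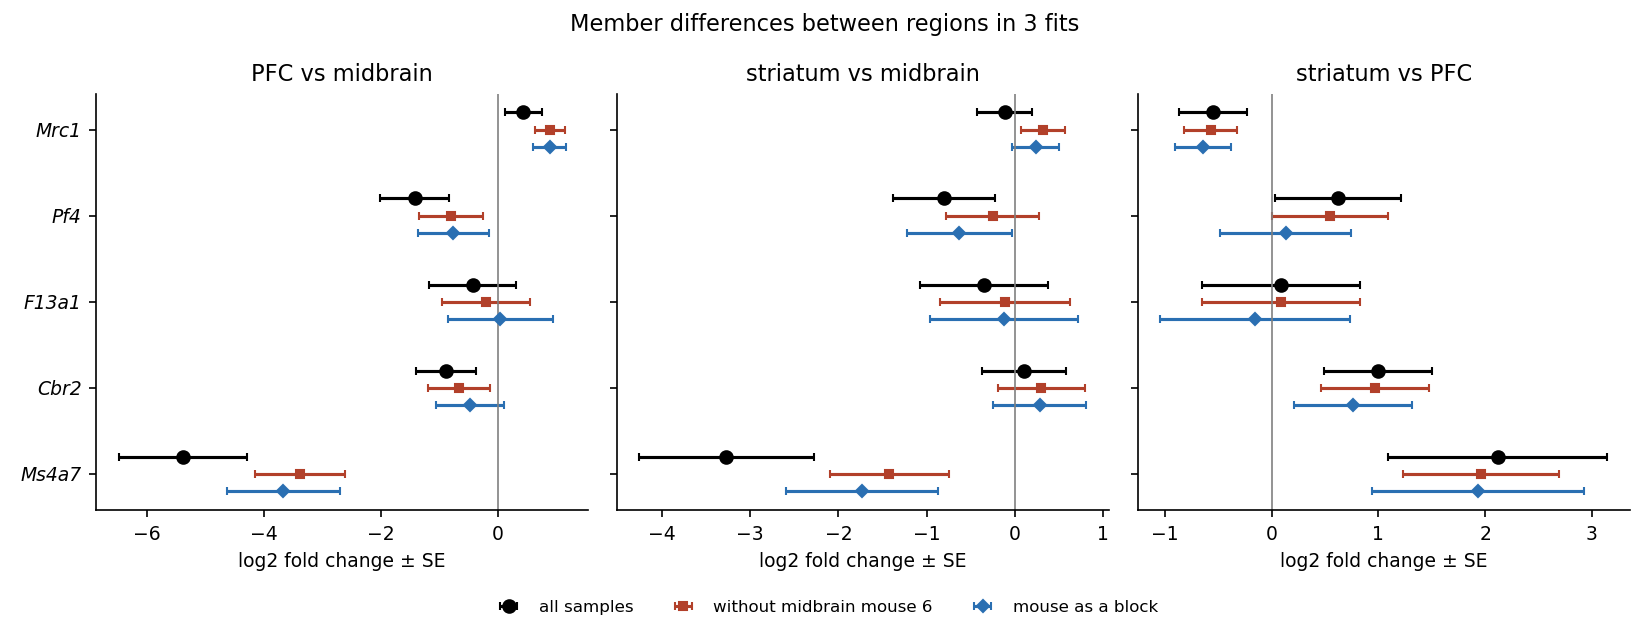
Log2 fold changes with SE of 5 members for the 3 pairs of regions, from the fit of all samples (black), without the midbrain sample of mouse 6 (red) and with the mouse as a block (blue). Cd163 is not drawn because most samples were at 0. Ms4a7 for PFC against midbrain was at -5.39, -3.39 and -3.67, and Mrc1 at 0.43, 0.90 and 0.88.

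Pf4 encodes platelet factor 4 (CXCL4), a chemokine of platelets and megakaryocytes that border macrophages also express. The gene (ENSMUSG00000029373) lies on the plus strand at chr5:90772435-90773383. Its CPM ran from 0.0417 to 5.41 in the midbrain with a median of 0.783, from 0.0220 to 2.33 in the striatum with a median of 0.512, and from 0.0526 to 0.775 in the PFC with a median of 0.325. No PFC sample reached the midbrain median. The groups still overlapped, with 6 of 12 midbrain samples above the highest PFC sample. Pf4 was not called for region (adjusted p = 0.256). PFC against midbrain was -1.43 on the log2 scale (SE 0.59, unadjusted p = 0.0209, adjusted p = 0.174), and -0.80 (SE 0.55) without the midbrain of mouse 6. Within mice, Pf4 was lower in PFC than in midbrain in 7 of 11 and higher in 4. With each mouse as a block the difference was -0.76 (SE 0.61, adjusted p = 0.567).

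F13a1 encodes the A subunit of coagulation factor XIII and is made by macrophages and megakaryocytes. It was at 0 in 3 midbrain and 3 PFC samples and reached 2.16 CPM in the midbrain, 2.57 CPM in the striatum and 2.00 CPM in the PFC, with medians of 0.567, 0.511 and 0.499 CPM. The region ranges overlapped nearly throughout. PFC against midbrain was -0.43 on the log2 scale (SE 0.75, adjusted p = 0.866). The gene (ENSMUSG00000039109, minus strand, chr13:36867178-37050244) overlaps the antisense genes Gm30489 and Gm49144, and whether counting used strand is not given in the sources used here.

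Cbr2 (ENSMUSG00000025150, minus strand, chr11:120729489-120732114), a carbonyl reductase, ran from 0 to 1.59 CPM in the midbrain with a median of 0.445, from 0.0879 to 1.52 CPM in the striatum with a median of 0.702, and from 0 to 0.775 CPM in the PFC with a median of 0.368. The striatum had the highest median, and 11 of 12 striatum samples exceeded the PFC median. Striatum against PFC was 1.0 on the log2 scale (SE 0.51, unadjusted p = 0.0562, adjusted p = 0.442), so it was not called.

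Cd163 (ENSMUSG00000008845, plus strand, chr6:124304656-124330527), the scavenger receptor for haemoglobin bound to haptoglobin, was at 0 in 25 of 35 samples and had 96 counts in all. The samples above the floor were 4 of the midbrain, 1 of the striatum and 2 of the PFC. The highest were the midbrain of mouse 3 at 0.577 CPM, the PFC of mouse 1 at 0.387 CPM and the midbrain of mouse 6 at 0.304 CPM. At this depth a difference between regions was not detectable, and no fold change is given (region effect, adjusted p = 0.471).

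Summed over the 6 members, the regions could hardly be told apart by their medians, which were 6.86 CPM in the midbrain, 6.18 CPM in the striatum and 7.34 CPM in the PFC. Over the 5 members other than Cd163, the median log2 difference was -0.90 for PFC against midbrain and -0.35 for striatum against midbrain, beside 0.01 for both over all genes. Without the midbrain of mouse 6 these medians were -0.67 and -0.11, and with each mouse as a block -0.48 and -0.12. A sample was said to stand apart where its log2 sum exceeded the median of its region by more than 3 scaled median absolute deviations, and 1 of 35 samples did so. In that sample, the midbrain of mouse 6, the sum was 18 times the region median, and Ms4a7 made up 79.3% of it. The next highest midbrain sample, mouse 3, had a sum of 18.1 CPM.

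By member, 4 of 6 had their highest level of all 35 samples in the midbrain of mouse 6. Ms4a7 was at 97.9 CPM there, against 4.79 CPM in the next sample. Mrc1 was at 16.4 CPM against 8.51, Pf4 at 5.41 CPM against 2.33, and Cbr2 at 1.59 CPM against 1.52. F13a1, at 1.78 CPM, and Cd163, at 0.304 CPM, were exceeded elsewhere. By the same rule applied to single members, Ms4a7 stood apart in this sample and no other member stood apart in any sample. Cd163 was left out of that rule because its region medians were 0. The striatum and PFC samples of mouse 6 had sums of 8.17 and 5.87 CPM and Ms4a7 at 0.

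The homeostatic microglia genes were at a usual level in the midbrain of mouse 6. Their sum was 53649 CPM, the 9th of 12 in that region. Ms4a7 remained a small part of the sample. The 5 MHC class II genes were Cd74, H2-Aa, H2-Ab1, H2-Eb1 and Ciita, and all but Ciita act in loading and presenting peptides to CD4 T cells. The 5 summed to 3659 CPM against 130 to 1312 CPM in the other midbrain samples. Cd74 was at 1498 CPM and H2-Ab1 at 1187 CPM, against medians of 123 and 85.1 CPM in the other midbrain samples. By region, 4 of the 5 class II genes were called, against 8.89% of all genes, and all 4 were lower in both PFC and striatum than in midbrain (5.99% and 6.47% of all genes called in these pairs). Without the midbrain of mouse 6 the region call held for 4. The log2 difference of Cd74 then went from -2.83 to -2.0 for PFC against midbrain and from -1.64 to -0.82 for striatum against midbrain (adjusted p = 0.136 for the latter). The part of other cells in the sort of this sample was not tested.

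Single genes of the other lists were also called for region. The share called over all genes was 8.89% in the fit of all samples, and the fit with each mouse as a block called 2977 of the 21236 genes. The counts by list were not tested against these. Of the homeostatic microglia genes, 6 of 14 were called for region, with 2 called higher in PFC and 4 higher in striatum than in midbrain and 0 called lower. Dcn, a fibroblast proteoglycan, was at 2.10 ± 4.87 CPM in midbrain (SD, n = 12) and 0.0132 ± 0.0328 CPM in PFC (SD, n = 11), and was lower in PFC (adjusted p = 0.00215), with 10 of 35 samples above the floor. Cd79a, a B cell receptor subunit, was lower in PFC with a log2 difference of -2.02 (adjusted p = 0.00586). The listed genes of other cells did not share a direction. Ccr2 of the monocyte list was higher in PFC than in midbrain by 1.59 (adjusted p = 0.000238). Gp1bb (platelet) and Ngp (neutrophil) were higher by 3.78 and 4.71, with 7 and 11 of 35 samples above the floor. Ngp in PFC, at 1.81 ± 5.83 CPM (SD, n = 11), rested on 1 sample at 19.4 CPM, the PFC of mouse 1. With each mouse as a block its region call was lost (adjusted p = 0.432). Ly6c2, Ace, Col1a1 and Ttr were called lower in PFC by the rule of the study. The calls by list were 3 of 9 monocyte genes, 2 of 6 meningeal fibroblast genes, 1 each of 8 platelet, 3 neutrophil, 7 lymphocyte and 4 choroid plexus genes, and 0 of the dendritic cell, erythrocyte, endothelial and mural genes. Without the midbrain of mouse 6, the calls were 2 for monocyte and 1 for meningeal fibroblast genes, and with each mouse as a block they were 2 and 0, with 0 for neutrophil and 2 for endothelial genes. Their part in the regional result for Ms4a7 was not tested.

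Lists of other cells were summed in the same way. In the midbrain of mouse 6, meningeal fibroblast genes summed to 9.02 CPM against 0 to 22.0 CPM in the other 11 midbrain samples, with Dcn at 6.13 CPM and Igf2 and Slc6a13 at 0. This sum was 15.5 times the median of those 11 samples, 0.584 CPM. The value of 22.0 CPM was the midbrain of mouse 3. That sample was also the highest of the midbrain for the mural, monocyte, dendritic cell and neutrophil lists. The remaining values are again for the midbrain of mouse 6. Endothelial genes, with all 9 above the floor, summed to 47.1 CPM against 11.7 to 45.5 CPM. Mural genes reached 7.91 CPM against 0.616 to 10.3 CPM, and monocyte genes 9.13 CPM against 2.13 to 9.30 CPM, with Vcan at 0. Dendritic cell genes were at 6.17 CPM against 5.32 to 24.2 CPM. Neutrophil genes were at 0.0217 CPM against 0 to 0.962 CPM, with S100a8 and S100a9 at 0.

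Platelet genes, relevant to Pf4 and F13a1, summed to 59.0 CPM against 28.9 to 70.2 CPM, with Gp1bb and Gp5 at 0 and Gp9 providing 57.2 CPM. Lymphocyte genes summed to 47.5 CPM against 33.6 to 55.5 CPM, with Trac at 0 and Cd79b at 46.1 CPM. Erythrocyte genes summed to 17.3 CPM against 0 to 111 CPM. Choroid plexus genes summed to 0.891 CPM against 0 to 17.4 CPM, with Ttr and Kcnj13 at 0. Of the 13 lists beside the members, the sums of the MHC class II genes, endothelial genes and the wider border macrophage panel were the highest of the midbrain in this sample. The panel sum exceeded the next sample only narrowly, at 638 CPM against 464 to 634 CPM in the other midbrain samples. It was 1.10 times their median. Slc40a1 and Maf, which microglia express too, provided 253 and 142 CPM of it, so the sum says little about the scarcer panel genes. Of the 20 panel genes in the table, 7 had their highest level of all 35 samples in the midbrain of mouse 6.

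**Figure D4:**
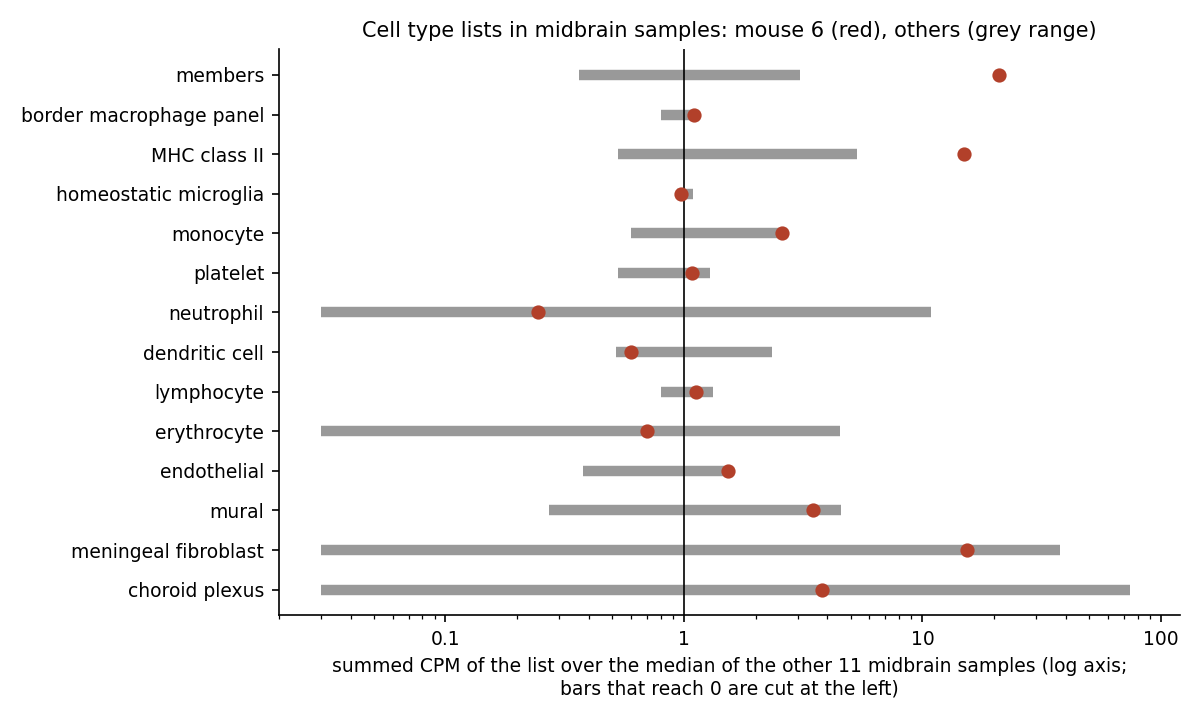
Summed CPM of each list in the midbrain sample of mouse 6 (red) relative to the median of the other 11 midbrain samples, on a log axis, with the range of those 11 in grey. The members stood at 21 times and the MHC class II genes at 14.9 times that median, outside the grey range, whereas homeostatic microglia genes stood at 0.976 times. Meningeal fibroblast genes stood at 15.5 times, inside the grey range.

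In the midbrain of mouse 11, MHC class II was high and the member sum was not. Its class II sum of 1312 CPM was the second of the 35 samples, yet its member sum was 3.0 CPM and its Ms4a7 level 0.155 CPM, the lowest of the midbrain. Across all 35 samples, the rank order of Ms4a7 was close to that of class II genes. Of 12295 genes with a mean of at least 1 CPM, those most like Ms4a7 by rank were H2-Ab1, H2-Eb1 and H2-Aa (Spearman rho 0.79, 0.78 and 0.76, and 0.77, 0.76 and 0.74 without the midbrain of mouse 6). The samples of each region share a place on both measures, so this is a description of levels. Within the 12 midbrain samples, rho with the class II sum was 0.85 for F13a1, 0.55 for Cbr2, 0.44 for Ms4a7 and for Mrc1, 0.41 for Pf4 and 0.29 for Cd163.

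**Figure D5:**
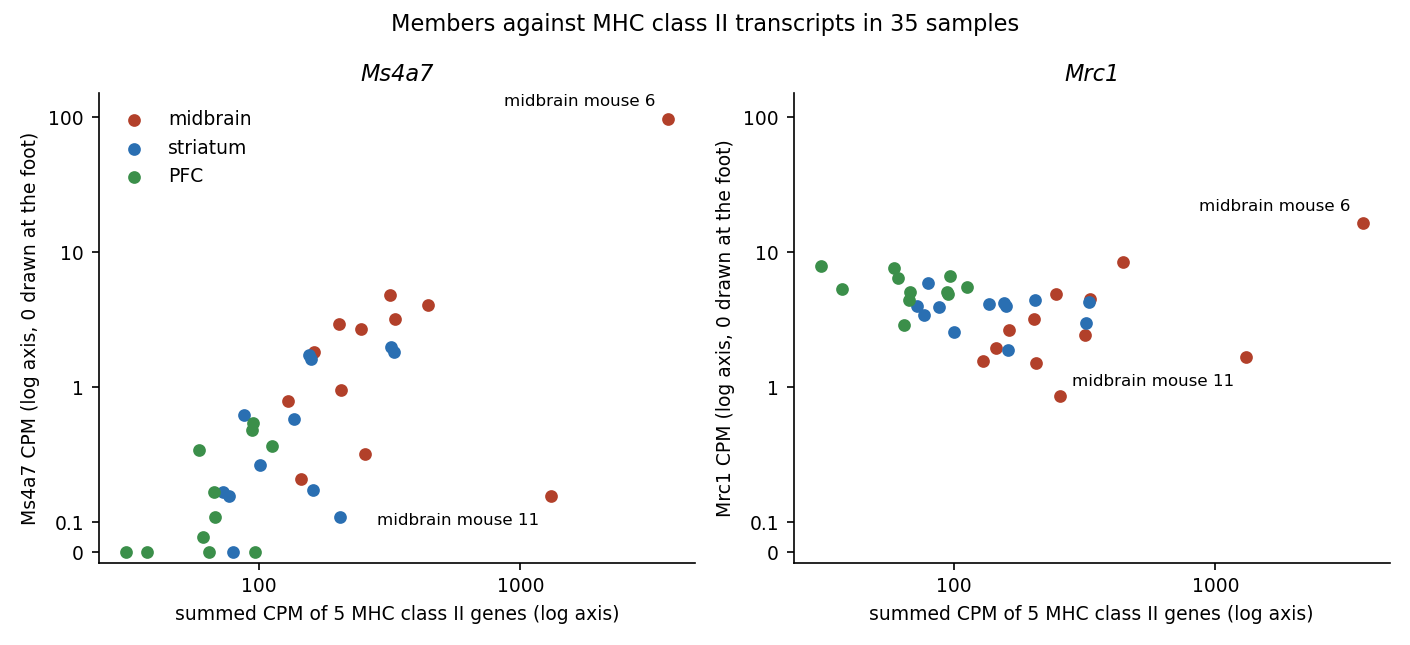
CPM of Ms4a7 (left) and Mrc1 (right) against the summed CPM of 5 MHC class II genes in 35 samples, both on log axes, coloured by region. The midbrain of mouse 6 was highest on both axes in both plots, and the midbrain of mouse 11 had a class II sum of 1312 CPM with 0.155 CPM of Ms4a7.

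The other members had other nearest genes. Mrc1 was most like Ccl24 (rho 0.68), an eosinophil-attracting chemokine of border macrophages, then Abhd4 and Adcy8 (0.64 and 0.62). Pf4 was most like Rpph1, Prcp and Gpr160 (0.72, 0.66 and 0.65). F13a1 was most like Igkc, 4933427G23Rik and Ripor2 (0.61, 0.60 and 0.57). Cbr2 was most like Ciao1, Ramp2 and Ep300 (0.56, 0.55 and 0.55), and Cd163 was most like Psmd5, Ocln and Taf6l (0.55, 0.54 and 0.54). Among the members themselves, rho over the 35 samples was highest for F13a1 with Ms4a7 (0.57) and for Pf4 with Ms4a7 (0.56), and was -0.13 for Mrc1 with Ms4a7. Within the 12 midbrain samples, Pf4 with Ms4a7 was at 0.88 and Mrc1 with Ms4a7 at 0.76.

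A wider border macrophage panel of 26 other genes had 20 in the table. The others, Lyve1 among them, were not analysed here. Region was called for 9 of the 20, where 8.89% of all genes were called, and they did not share a direction. In PFC against midbrain, 3 were higher and 4 lower. In striatum against midbrain, 2 were higher and 4 lower, and in striatum against PFC, 3 were higher and 1 lower. The median log2 difference of the panel was -0.72 for PFC and -0.63 for striatum against midbrain. Without the midbrain of mouse 6, 5 of the 20 were called, namely Stab1, Ccl24, Ccl8, Slc40a1 and Cd36. With each mouse as a block, 7 were called, with Tgfbi added, and Ccl8, Clec12a and Clec4n were not (adjusted p = 0.186, 0.0908 and 0.118). The block fit called more genes for region, 2977 of the 21236, and the 8.89% belongs to the fit of all samples without a block.

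The abundant panel genes are ones that microglia express too. Slc40a1, the iron exporter ferroportin, was higher in PFC (359 ± 49.7 CPM, SD, n = 11) and striatum (329 ± 35.9 CPM, SD, n = 12) than in midbrain (238 ± 33.8 CPM, SD, n = 12), by 0.59 and 0.46 on the log2 scale (adjusted p = 1.21e-06 and 8.16e-05). Stab1, a scavenger receptor, was highest in the striatum at 132 ± 28.1 CPM (SD, n = 12), by 0.57 over midbrain (adjusted p = 0.000127). Maf, a transcription factor of resident macrophages, was higher in PFC than in midbrain by 0.36 (SE 0.10, adjusted p = 0.0224), and its region call was lost without the midbrain of mouse 6 (adjusted p = 0.0673), although the PFC difference was then 0.35. Tgfbi, an extracellular matrix protein, was at 44.5 ± 8.06 CPM in midbrain (SD, n = 12) and was not called for region (adjusted p = 0.105), but was called with each mouse as a block (adjusted p = 0.00999).

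Among the scarcer panel genes, Cd36, Ccl8, Clec12a and Clec4n had the direction of Ms4a7. Cd36, a fatty acid scavenger receptor, fell from 2.42 ± 1.53 CPM in midbrain (SD, n = 12) to 0.293 ± 0.337 CPM in PFC (SD, n = 11), a log2 difference of -2.91 (SE 0.54, adjusted p = 0.000353). Ccl8, a monocyte chemokine, had a log2 difference of -3.78 for PFC (SE 1.10, adjusted p = 0.0289) at a midbrain mean of 0.349 CPM. It was above the floor in only 7 of 35 samples and was highest, at 1.57 CPM, in the midbrain of mouse 6. Without that sample its PFC difference was -3.15 (adjusted p = 0.0691). Clec12a and Clec4n, lectin receptors of myeloid cells, had log2 differences of -4.40 and -3.86 for PFC (adjusted p = 0.0115 and 0.0317), and both lost the region call without the midbrain of mouse 6, where they were at 8.67 and 7.54 CPM. Ccr1, a chemokine receptor, had a log2 difference of -1.10 for striatum against midbrain (SE 0.30, adjusted p = 0.0190), and lost the region call without the midbrain of mouse 6 (adjusted p = 0.0700). Ccl24 was higher in PFC than in midbrain by 0.50, which met the rule of the study but not adjustment (adjusted p = 0.0624).

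Sex was compared next, as males relative to females. Over the 3 regions, 0 of 6 members met the rule for sex (unadjusted p under 0.05 and fold change over 1.2) in edgeR and 0 in DESeq2, where 4.13% of all genes met it in edgeR. The Ms4a7 difference was -0.78 on the log2 scale (SE 0.87, adjusted p = 0.939) and that of Mrc1 -0.13 (SE 0.26, adjusted p = 0.972). Within the midbrain, Ms4a7 was lower in males, with a log2 difference of -3.23 (SE 1.12, unadjusted p = 0.00700). It was 1 member of 6 against 4.84% of all genes and did not pass adjustment (adjusted p = 0.762), and 0 members met the rule without the midbrain of mouse 6. Midbrain Ms4a7 had a median of 1.88 CPM in males and 2.26 CPM in females.

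Within the striatum, 0 of 6 members met the rule for sex against 2.28% of all genes, and within the PFC 0 of 6 against 5.29%. No gene of the table passed the test of a sex difference that varied between regions in edgeR after adjustment (0% of all genes, and 632 genes at an unadjusted p under 0.05). Among the members, Ms4a7 was the 1 with an unadjusted p under 0.05 in that test (p = 0.0259, adjusted p = 1), and DESeq2 called 0 members after adjustment.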

How the data were processed

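RNA from sorted cells was amplified as full-length cDNA (Smart-Seq HT), made into Nextera XT libraries and sequenced as paired reads. The authors trimmed reads with Trimmomatic, mapped them to GRCm38 with HISAT2, and deposited raw counts per Ensembl gene, 1 column per sample. The counting tool and its use of strand are not given in the sources used here. The methods state a filter of at least 1 CPM in a subgroup of sex and region. In the deposited table, 68.3% of genes reached 1 CPM in any sample. Gene names, positions and exon lengths came from GENCODE M21 (133 genes had no name), and promoters from RefSeq. No column of per-sample values was left unused.

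Counts were analysed with edgeR 4.0.16 in R (TMM scaling, robust quasi-likelihood test, Benjamini-Hochberg adjustment over all genes) with region and sex as additive terms. Sex within regions used the means of the 6 groups. Region and interaction were called at an adjusted p under 0.05. Pairs of regions needed a called region effect, unadjusted p under 0.05 and fold change over 1.2, and sex the last conditions alone, after the thresholds of the study. SE is the log2 fold change divided by the square root of the F statistic. DESeq2 1.42.0 and other fits were alternatives. The fits were checked on simulated data. Numbers in the sample titles were taken as mouse numbers, an inference that the labels do not state. Sex agreed across the samples of a number, but odd numbers were male and even numbers female in every region. That agreement therefore does not show that a number is 1 animal. Deviations from group means correlated at 0.325 on average (lowest -0.274) between samples of the same number and at -0.107 between other mice of the same sex. The means were those of each region and sex, which pulls the latter value below 0, so it is not a neutral baseline.

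All 6 members are named. Panel genes are named for the 4 highest mean CPM and up to 8 called for region by p. Likeness names 3 genes per member. The members and lists were chosen with earlier results of these data known. Reads were amplified without molecular identifiers, so the floor covers counting error only.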

Additional observations from a re-analysis of the deposited data

Results flagged for a closer look

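Within groups of 1 region and 1 sex, the highest or lowest sample was compared with its nearest neighbour by Dixon's test. For independent, normally distributed values this test flags about 1 group in 20 by chance. Of 42 groups of members and their sum, 14 held a flagged sample. The CPM were not log-transformed, many were near the floor, and the sum was tested beside its own members. The rate of 1 in 20 therefore need not hold here, and the 14 are a description. The midbrain of mouse 6 was far above the other 5 females of its group for Ms4a7 (97.9 CPM, next 4.79), Mrc1 (16.4 CPM, next 4.88), Pf4 (5.41 CPM, next 1.89) and the sum of members (123.4 CPM, next 11.3).

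The striatum of mouse 3, whose column name and label differed on region, was high among males for F13a1 (2.57 CPM, next 0.772). The striatum of mouse 6 was high among females for Cbr2 (1.52 CPM, next 0.712) and that of mouse 4 for Ms4a7 (1.98 CPM, next 0.624). The PFC of mouse 8 was high among females for Ms4a7 (0.543 CPM, next 0.167). Low samples were the striatum of mouse 11 for Cbr2 (0.0879 CPM, next 0.612) and the striatum of mouse 2 for Pf4 (0.0481 CPM, next 0.417).

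For Cd163, where most samples were at 0, the striatum of mouse 1 (0.0201 CPM) had a single count, below the floor, and any single count among samples at 0 would stand out in this way. The other samples far from their groups, all above the floor, were the striatum of mouse 10 (0.147 CPM), the PFC of mouse 1 (0.387 CPM) and the PFC of mouse 2 (0.136 CPM).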

How the results depend on the processing

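DESeq2, DESeq2 size factors in edgeR and an expression filter changed no count of members or panel genes called by more than 1.5 times. With the replicate block (mouse in place of sex), 0 members were called for striatum against midbrain and 0 for striatum against PFC, Mrc1 turned to 0.24 for striatum against midbrain, and F13a1 turned to 0.036 for PFC against midbrain and -0.16 for striatum against PFC. The block moved no other count of calls by over 1.5 times. With a term for mice 7 to 12, 0 members were called for striatum against PFC and 1 for sex within the striatum, Mrc1 turned to 0.018 for striatum against midbrain and F13a1 to -0.021 for striatum against PFC.

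Mice 1 to 6 alone gave 0 members for region and for all 3 pairs, and 2 panel genes. Cbr2 turned to -0.044 for striatum against midbrain and Pf4 to 0.18 for sex. Mice 7 to 12 alone gave 0 members for region, for the pairs and for sex within the midbrain, and 3 panel genes. F13a1 turned to 0.39, 0.039 and -0.35 for PFC against midbrain, striatum against midbrain and striatum against PFC, Mrc1 to 0.77 for striatum against midbrain and 0.21 for sex, and Ms4a7 to 0.26 for sex. These fits hold fewer samples, and mice 1 to 6 alone gave 512 called genes for region over the whole table.

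Without the striatum of mouse 3, 0 members were called for striatum against PFC and F13a1 turned to -0.33 there. At an adjusted p under 0.05 with no fold minimum, 0 members were called for striatum against PFC and 0 for sex within the midbrain. Without the midbrain of mouse 6, the sample that stood apart, 5 panel genes were called for region and 0 members for sex within the midbrain, Mrc1 turned to 0.32 for striatum against midbrain, and Mrc1, Pf4 and Ms4a7 turned to 0.16, 0.29 and 0.47 for sex. With the replicate block as well, a fit added after seeing the data, 2 members were called for region, for PFC against midbrain and for striatum against PFC. Mrc1 turned to 0.49 for striatum against midbrain, and F13a1 to 0.45, 0.37 and -0.084 for PFC against midbrain, striatum against midbrain and striatum against PFC. The causes were not tested.

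Leaving out each mouse in turn gave 1 to 2 members for region and 1 to 2 for PFC against midbrain (2 without mouse 6), 0 to 1 for striatum against midbrain (0 without mouse 6), 0 to 2 for striatum against PFC (changed without mouse 1, 2, 3, 4, 6, 9 or 11), 0 to 2 for sex within the midbrain (changed without mouse 3 or 6), 0 to 1 for sex within the PFC (changed without mouse 2 or 5), and 5 to 9 panel genes (5 without mouse 4). The log2 ranges that crossed 0 were -0.25 to 0.23 for Mrc1, -0.023 to 0.25 for Cbr2, both striatum against midbrain, -0.38 to 0.43 for F13a1 in striatum against PFC, and, for sex, -0.29 to 0.23 for Mrc1, -0.38 to 0.29 for Pf4, -0.42 to 0.012 for Cbr2 and -1.07 to 0.30 for Ms4a7. Depth limits Cd163, for which no fold change is given here.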

Other observations

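Over the whole table, the midbrain of mouse 6 had 23 genes at 5 CPM or more and at over 3 times every other sample. They were chosen after their values were seen. The other 34 samples had between 0 and 5 such genes each. The 23 genes include some of the members and lists above, namely Ms4a7, Clec4n, Clec12a, H2-Eb1, H2-Aa and H2-Ab1. Pomc, the precursor of pituitary and hypothalamic peptide hormones, was at 106 CPM against 2.90 CPM in the next sample. Genes of plasma cells were also high, with Igkc at 352 CPM against 71.4 CPM and Jchain at 42.1 CPM against 5.41 CPM. Myeloid genes included Clec4n at 7.54 CPM against 0.406, Acp5 at 13.5 CPM against 0.942, Slamf7 at 12.4 CPM against 2.13 and Cybb, the phagocyte oxidase, at 77.9 CPM against 21.1. Cd4 was at 6.35 CPM against 0.342, and H2-M2 at 11.8 CPM against 1.18.

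In the PFC of mouse 1, the neutrophil list summed to 42.2 CPM, where the other 34 samples had up to 0.962 CPM. The member sum of that sample, 11.1 CPM, was the highest of the PFC.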
